A study of Homo sapiens with 4 samples.

Results

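APIP, the assembly factors of the apoptosome and the caspases around them were compared between LN229 cells after SOX2 knockdown and after mock knockdown. The genes were taken by symbol, as APIP, APAF1, CASP9, CASP8, CASP4, CYCS and DIABLO, and 12 of the 32886 gene probes used on the array carried 1 of these 7 symbols. LN229 is a human glioblastoma line, and both groups were that line transfected with small interfering RNA, against SOX2 in the knockdown group and without a target in the mock group. Total RNA of 2 cultures per group was labelled with biotin and hybridised to 1-colour arrays, 1 array per culture, and the study described the cultures as biological replicates that included the transfection. The treatment label of every sample named SW620, a colon cancer line, in place of LN229.

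Apoptosis by the mitochondrial route starts when cytochrome c, the product of CYCS, leaves mitochondria and binds APAF1, which then assembles into the apoptosome and activates the initiator caspase CASP9. DIABLO leaves mitochondria at the same time and releases caspases from the inhibitor of apoptosis proteins. CASP8 is the initiator caspase of death receptors, and CASP4 is an inflammatory caspase that senses bacterial lipopolysaccharide inside the cell. APIP, the APAF1-interacting protein, is known both as an inhibitor of this machinery and as an enzyme of the methionine salvage pathway, which recycles the sulphur-containing by-product of polyamine synthesis.

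APIP and APAF1 each share a stretch of DNA with a gene transcribed away from it, and these neighbours served below as a comparison on the same arrays. In RefSeq's table for GRCh38.p14, the APIP start lies 59 bases from the first and 239 bases from the second start of PDHX, which encodes a component of the pyruvate dehydrogenase complex. The APAF1 start lies 502 bases from that of IKBIP, whose product interacts with the kinase IKBKB. The windows below run from 250 bases before to 50 bases after the start of each gene, 5′ to 3′ on the strand of that gene, and are shown because the changes on the 2 sides of each stretch differed. The APIP window is chr11:34916330-34916629 on the minus strand and the APAF1 window is chr12:98645040-98645339 on the plus strand. Capitals mark the bases of the window that lie between the start of the gene and the nearest start of its neighbour. These are all 58 bases of that stretch for APIP and 250 of its 501 bases for APAF1, where the window ends.
APIP: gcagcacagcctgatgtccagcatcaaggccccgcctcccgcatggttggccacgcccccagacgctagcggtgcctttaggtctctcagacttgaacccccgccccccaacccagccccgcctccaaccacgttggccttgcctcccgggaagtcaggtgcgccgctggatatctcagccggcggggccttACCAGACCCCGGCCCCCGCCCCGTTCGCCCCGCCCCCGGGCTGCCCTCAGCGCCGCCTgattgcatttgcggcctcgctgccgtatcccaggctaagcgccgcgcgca
APAF1: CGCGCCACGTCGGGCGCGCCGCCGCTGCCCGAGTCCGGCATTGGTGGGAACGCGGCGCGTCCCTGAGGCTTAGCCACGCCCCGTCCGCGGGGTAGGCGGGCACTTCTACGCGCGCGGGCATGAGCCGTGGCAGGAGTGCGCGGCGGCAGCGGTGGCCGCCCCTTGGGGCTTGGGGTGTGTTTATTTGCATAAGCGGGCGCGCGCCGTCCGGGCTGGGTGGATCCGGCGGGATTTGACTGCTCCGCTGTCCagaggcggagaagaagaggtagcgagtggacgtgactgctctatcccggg
Both windows were rich in G and C, which made up 70.7% of the APIP window and 71.3% of the APAF1 window. The GC box GGGCGG, searched on both strands, matched 3 times in the APIP window and 1 time in the APAF1 window, and 45.0% of all 35116 RefSeq promoter windows held it. The SOX core sequence ACAAAG was found on neither strand of either window, and 16.1% of all windows held it. Neither window held the related core ACAATG, present in 10.8% of all windows. AACAAT, which can overlap the previous core and occurred in 10.1% of all windows, was not found in them either. At least 1 of these 3 cores was present in 29.1% of all windows, and in 3 of the 13 windows of the 7 genes, 1 of CASP8 and 2 of DIABLO. The looser consensus that the study derived for SOX2, wwTGnwTw with w for A or T, was not counted over all windows. It can be read in both windows printed here, as attgcatt for APIP and TTTGCATA for APAF1. The study also designed a primer pair for APIP to measure SOX2 chromatin immunoprecipitation by quantitative PCR. It reported enrichment over its IgG control for every gene picked for this assay, and its text does not name these genes. The pair is printed because it is the designed amplicon of the study at this gene. Neither primer was found in the promoter windows of APIP or PDHX. The study assigned SOX2 regions to genes over far longer distances than these windows span. Sequence outside the windows was not searched, so SOX2 binding at APIP was not assessed here.
APIP forward primer: gtaggcacagggctatggaa
APIP reverse primer: agcaagcagtttcacccttc

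Signals are given as the deposited signal divided by the 75th percentile of the probes on the same array, so that 1 is the level of that percentile. They are listed as mock 1, mock 2, SOX2 knockdown 1 and SOX2 knockdown 2, and levels of different probes were not compared. A ratio is the mean of the 2 knockdown arrays over the mean of the 2 mock arrays, and a log2 change is the difference of the mean log2 signals, with limma's standard error (SE). Probes entered the comparison when the signal-to-noise value (S/N) exceeded 3 on the 2 mock arrays, the 2 knockdown arrays or all 4, which held for 21256 probes and for 11 of the 12 probes of these genes. SOX2 itself was lower after knockdown, with signals of 0.467, 0.701, 0.209 and 0.149, a ratio of 0.307 and S/N values from 3.06 to 13.56 (log2 change -1.69, SE 0.28, limma adjusted p = 0.117). S/N was over 3 for 63.8% to 69.4% of the probes on an array. The arrays correlated with r = 0.986 within mock, 0.991 within knockdown and 0.977 to 0.984 between groups. By the median absolute log2 difference, however, mock 1 was nearer to SOX2 knockdown 2 (0.207) than to mock 2 (0.223). Of the glioblastoma-line markers, VIM, CD44 and S100B gave S/N values of 60.3 or more on both mock arrays, and 5 of 7 genes of that list were compared. NES was at 38.98 and 27.93 in mock, and GFAP was at 12.38 and 8.78 on its brighter probe. CHI3L1 was at S/N 3 or under on all 4 arrays, and FN1 did not enter the comparison. Of the colon markers, CDH1 and KRT20 were at S/N 3 or under on all 4 arrays, and 5 of 10 genes had a probe that was compared. VIL1 had S/N values of 5.91 to 15.9 on probe 234681 and of 3 or under on its other probe. LGALS4 was at 5.2 and 8.2 in mock, and CDX2 was at 4.38 and 3.18. Both were at S/N 3 or under after knockdown. KRT18 and probe 105539 of KRT8 had S/N values of 27.58 or more on all 4 arrays. The summed level of the colon list was 6.54 to 6.59 in mock and 7.38 to 7.77 after knockdown, most of it KRT18. The part of these markers in the results below was not tested.

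APIP was the gene of this set with the largest difference, with ratios of 0.478, 0.514 and 0.463 on its 3 probes. All 3 lay lower on both knockdown arrays than on both mock arrays. The study's text listed APIP among up-regulated genes after SOX2 knockdown for which it reported that RT-PCR upheld the array data. This is the opposite direction to the signals here. The 2-fold limit that the study used, a ratio under 0.5 or over 2, was passed by 2 of the 3. Without the mock 2 array these were at -0.94 and -0.89 on the log2 scale and no longer passed it, and the APIP probe that had fallen short then did, at a ratio of 0.450. Among all probes compared, 1.04% were past 2-fold lower and 1.57% past 2-fold higher.

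Probe 129859 of APIP gave 0.795 and 0.940 in mock and 0.429 and 0.401 after knockdown. The groups did not overlap, and the ratio was 0.478 (log2 change -1.06, SE 0.15, 95% interval -1.46 to -0.66). Probe 158402 gave 0.955 and 0.718 in mock and 0.417 and 0.443 after knockdown, again without overlap, and its ratio of 0.514 stayed just short of 2-fold (log2 change -0.95, SE 0.19). Probe 188227 gave 0.627 and 0.836 in mock and 0.373 and 0.305 after knockdown. It had the lowest ratio of the 3, 0.463, also without overlap (log2 change -1.10, SE 0.21). All 3 probes were well measured, with S/N values from 33.4 to 56.2 on the 4 arrays. Probes 158402 and 188227 carry 1 gene identifier, hCG1784878.2, and probe 129859 carries another, hCG15651.1, so the array design held APIP under 2 gene identifiers. The 3 probes did not share the order of the arrays within a group, since mock 1 was the higher mock array on probe 158402 and the lower one on the other two.

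Averaged over the 3 probes, the log2 level of APIP was -0.36 and -0.28 in mock and -1.30 and -1.40 after knockdown. The difference of -1.04, a ratio of 0.488, was 16.2 times the pooled SD of 0.064 between arrays of a group (n = 2 per group). This SD was taken after averaging probes whose mock arrays differed in opposite directions, so it is smaller than the spread of a single probe. On single APIP probes the mock SD was 11.8% to 20.2% of the mean. The exact two-sided permutation test over the 4 arrays gave p = 0.333, which is the smallest p that 2 arrays against 2 can give. With limma across all 21256 probes, the adjusted p of the 3 APIP probes was 0.102 to 0.137, and 0 of all probes were under 0.05 (0%), where the smallest adjusted p was 0.0582. At an unadjusted p under 0.05, limma called all 3 APIP probes lower, beside 9.16% of all probes called lower and 7.9% called higher.

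The call depended on the processing, and the cause of this was not tested. All 3 APIP probes had a limma adjusted p under 0.05 when arrays were scaled to their medians (0.00446 to 0.0226), when the deposited signal was used without further scaling (0.00586 to 0.0281), and in the authors' own normalised table (0.00565 to 0.0269). With a variance trend in limma, 1 of the 3 was under 0.05 (0.0443 to 0.0772). The size of the difference hardly moved. On the log2 scale the mean over the 3 probes was -1.07 with array medians, -1.06 without further scaling and -1.06 in the authors' table. From the raw signal with normexp background correction and quantile normalisation the mean was -0.83, no APIP probe passed 2-fold, and the adjusted p was 0.177 to 0.196. RNA of whole cultures was measured, so fewer cells with APIP transcripts and less transcript per cell cannot be told apart.

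**Figure D1:**
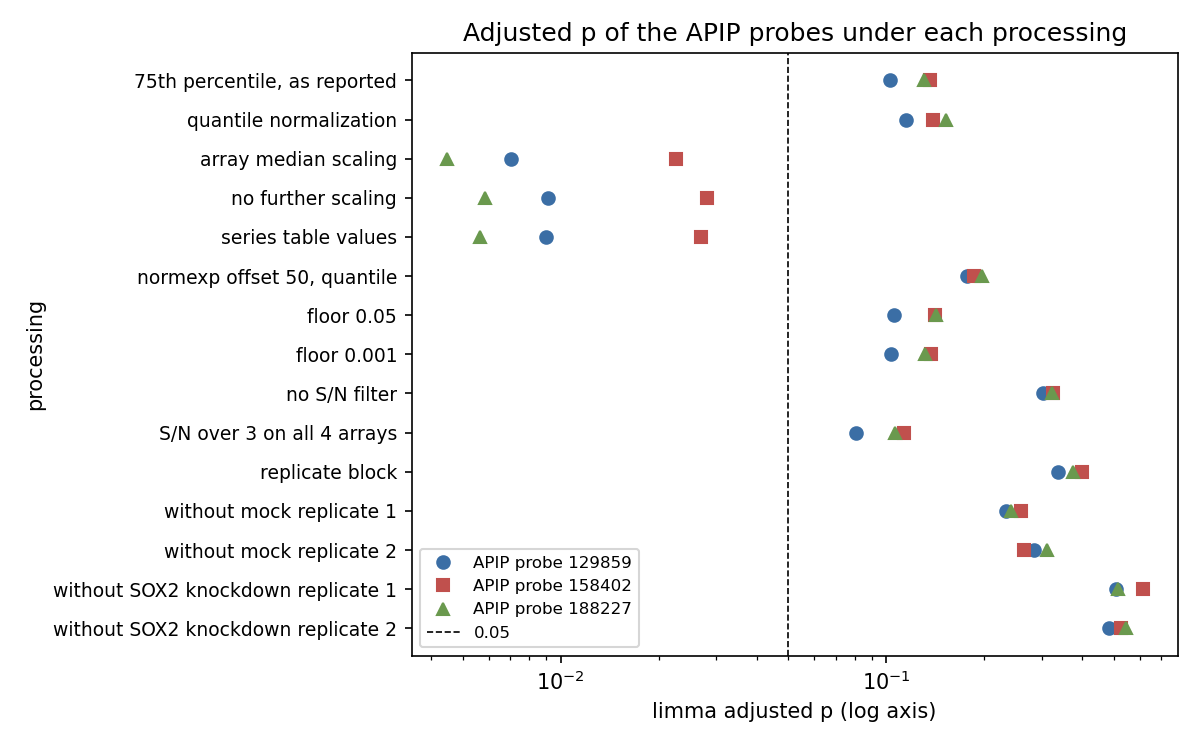
Limma adjusted p (log axis) of the 3 APIP probes, 1 symbol per probe, under each processing plotted, which leaves out the variance trend; the dashed line is 0.05. All 3 probes lie under 0.05 with array median scaling, no further scaling and the series table values, and over 0.05 in the other rows plotted.

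PDHX stayed near its mock level. Its signals were 2.33, 2.58, 2.53 and 2.25, the groups overlapped, and the ratio was 0.972 (log2 change -0.04, SE 0.14, 95% interval -0.43 to 0.34). The log2 ratio of APIP over PDHX within an array was -1.58 and -1.64 in mock and -2.64 and -2.57 after knockdown. The knockdown arrays had the lower values, with a difference of -0.995, at the smallest possible exact permutation p of 0.333. The neighbour of APIP on the other side, EHF, a transcription factor of epithelial cells, was at S/N 3 or under on all 4 arrays.

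APAF1, the scaffold of the apoptosome, was slightly lower after knockdown. Its probe gave 0.244 and 0.246 in mock and 0.215 and 0.196 after knockdown. The groups did not overlap, and the 95% interval of the log2 change included 0 (ratio 0.840, log2 change -0.25, SE 0.13, 95% interval -0.60 to 0.10, limma adjusted p = 0.431). IKBIP, on the other side of the APAF1 start, was higher on both knockdown arrays, at 1.10 and 1.15 in mock and 1.98 and 1.92 after knockdown (ratio 1.74, log2 change 0.80, SE 0.12, limma adjusted p = 0.109). The log2 ratio of APAF1 over IKBIP was -2.18 and -2.22 in mock and -3.20 and -3.29 after knockdown, a difference of -1.05 with an exact permutation p of 0.333. In both head-to-head pairs the ratio to the neighbour was thus lower on the knockdown arrays, with the larger part of the difference on the side of APIP in its pair and on the side of IKBIP in the other.

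**Figure D2:**
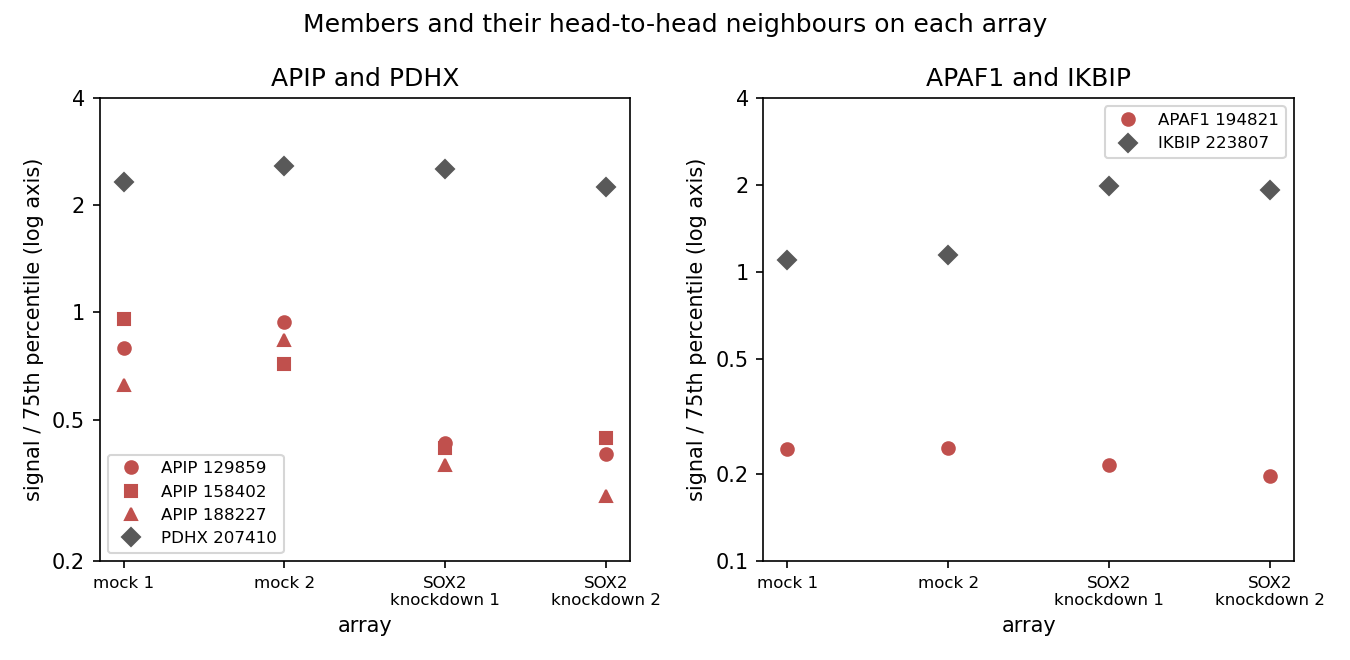
Scaled signal (log axis) of APIP and PDHX (left) and of APAF1 and IKBIP (right) on each of the 4 arrays, 1 point per probe and array; heights of different probes are not comparable. The APIP probes have ratios of 0.463 to 0.514 while PDHX has 0.972, and IKBIP is at 1.74 while APAF1 is at 0.840.

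CASP9, the caspase that the apoptosome activates, had a well-measured probe and a dim one. The well-measured probe 200335 gave 0.292 and 0.331 in mock and 0.263 and 0.258 after knockdown. It was lower without overlap, at a ratio of 0.836 close to that of APAF1 (log2 change -0.26, SE 0.14, limma adjusted p = 0.449). The dim probe 189498 gave 0.0495, 0.0392, 0.0252 and 0.0218, with an S/N over 3 on 1 mock array alone, and was not tested. DNAJC16, a J-domain protein gene that starts 2058 bases from the nearer CASP9 start and runs away from it, had a ratio of 0.827 (limma adjusted p = 0.409).

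Cytochrome c was measured by a bright probe and a dim probe of CYCS. The bright probe 102483 gave 14.3 and 14.4 in mock and 13.02 and 13.3 after knockdown, and its ratio of 0.917 was the nearest to 1 among the probes of this set whose groups did not overlap (log2 change -0.12, SE 0.12, limma adjusted p = 0.726). The dim probe 216552 gave 0.193, 0.109, 0.0757 and 0.122, so that the groups overlapped. It was at S/N 3 or under on both knockdown arrays and was compared through the mock arrays alone. Its measured mean log2 signal was 1.51-fold lower after knockdown (measured ratio 0.656, log2 change -0.59, SE 0.38, limma adjusted p = 0.537). This fold is not a lower limit. The mock signals behind this fold were themselves near an S/N of 3, at 3.68 and 3.15. When 1 array was left out, the log2 change ran from -1.004 to -0.18, with the weakest value without mock 1. Against the signal that the probe's own error would need for an S/N of 3, no fold was left. OSBPL3, an oxysterol-binding protein gene next to CYCS, had a lower ratio than the bright CYCS probe, 0.692 (limma adjusted p = 0.166).

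DIABLO, the antagonist of the inhibitor of apoptosis proteins, was the single member that was higher without overlap after knockdown. Its probe gave 2.60 and 2.85 in mock and 3.44 and 3.62 after knockdown. The groups did not overlap and the ratio was 1.30, with a 95% interval of the log2 change that ended just above 0 (log2 change 0.37, SE 0.13, 95% interval 0.02 to 0.73, limma adjusted p = 0.273).

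CASP8 and CASP4, which act outside the apoptosome, differed little. Probe 223011 of CASP8 gave 0.317 and 0.310 in mock and 0.281 and 0.260 after knockdown, lower without overlap at a ratio of 0.863 (limma adjusted p = 0.503). Probe 197333 of CASP8 gave 0.290, 0.334, 0.300 and 0.243, and although its ratio was nearly the same, 0.869, its groups overlapped. CASP4 gave 0.964, 1.07, 0.993 and 0.985. Both knockdown arrays lay between the mock arrays, and the ratio was 0.971 (log2 change -0.04, SE 0.13, limma adjusted p = 0.942).

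**Figure D3:**
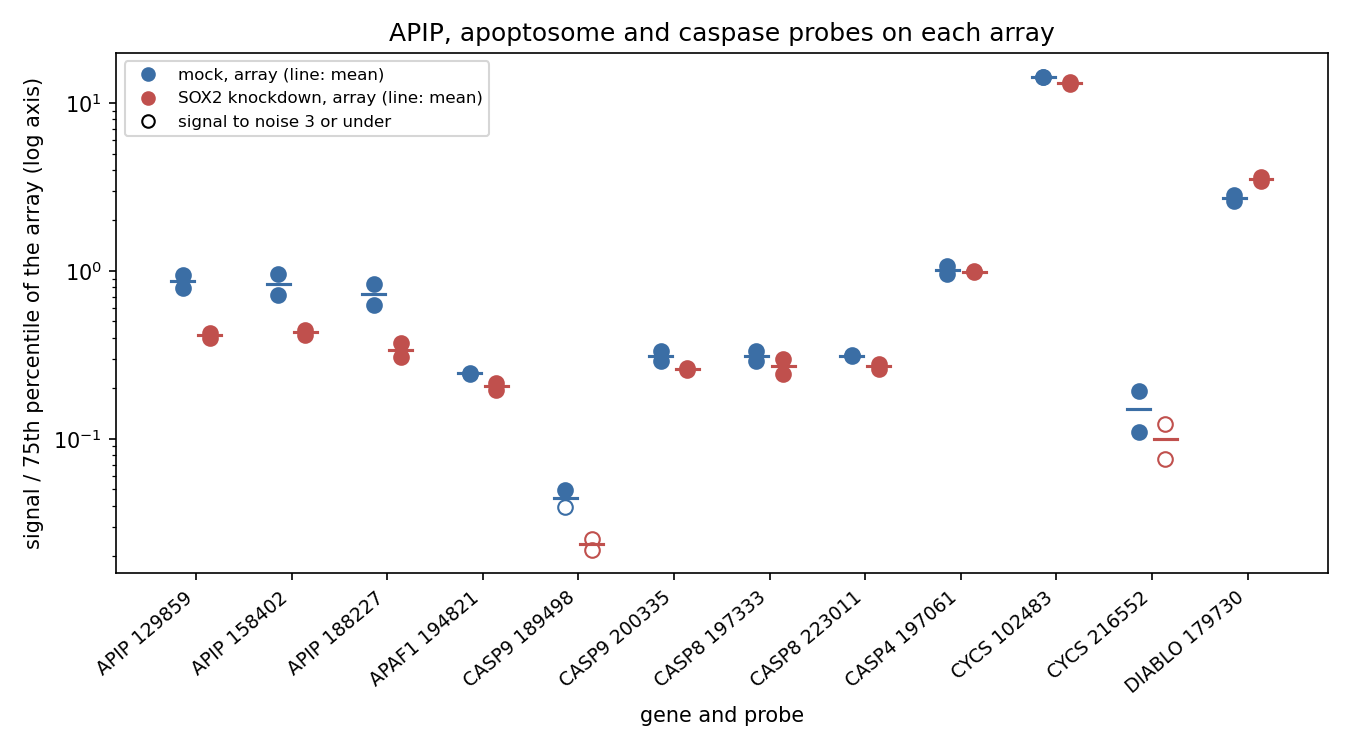
Scaled signal (log axis) of the 12 probes of the 7 genes, with 1 point per array, the mock arrays left and the SOX2 knockdown arrays right of each tick, and lines for the means of 2 arrays; open points have an S/N of 3 or under. The 3 APIP probes show the widest gaps among the well-measured probes, DIABLO alone lies higher after knockdown, and the open points belong to CASP9 probe 189498 and CYCS probe 216552.

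Taken over the 11 probes compared, 7 were lower and 1 was higher without overlap of the groups, and 3 overlapped, beside 25.8% of all probes lower and 21.2% higher without overlap. Without APIP, 4 of 8 probes were lower and 1 was higher without overlap. The median log2 change was -0.25 over the 11 probes and -0.21 over the 8 probes of the other 6 genes, against -0.0012 over all probes compared. None of those 8 probes passed 2-fold, and their ratios ran from 0.656 to 1.30. At an unadjusted p under 0.05, limma called DIABLO alone among them.

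**Figure D4:**
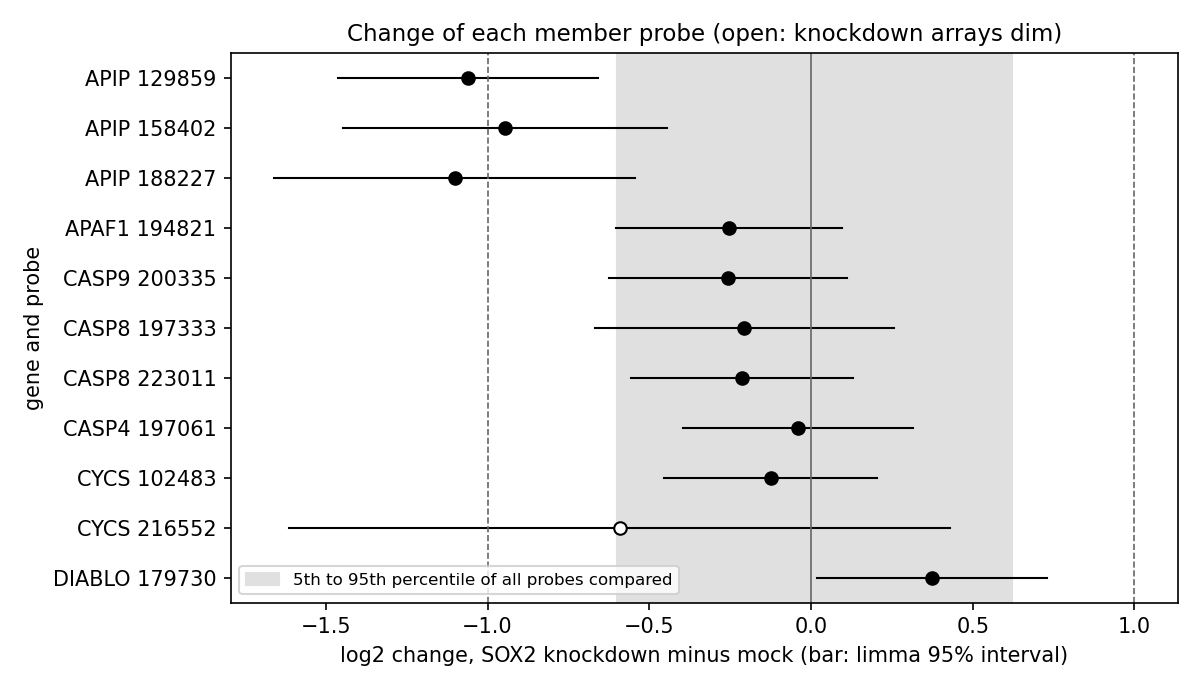
Log2 change (SOX2 knockdown minus mock) of the 11 probes compared, with limma's 95% interval as bars; the grey band spans the 5th to 95th percentile of all 21256 probes (-0.60 to 0.62) and dashed lines mark 2-fold. The 3 APIP probes lie left of the band, at -1.10 to -0.95, and the other probes lie inside it; the open point is the CYCS probe that was dim after knockdown.

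The other caspases differed little between the groups. Of the 9 caspase genes beside CASP4, CASP8 and CASP9, 5 had a probe that was compared. Their 5 probes had a median log2 change of -0.10, with 0 past 2-fold and 2 lower without overlap. Of all probes compared, 25.8% were lower without overlap, and 1.04% were past 2-fold lower and 1.57% past 2-fold higher. CASP2 had the lowest ratio of the 5, 0.850, and its groups overlapped (log2 change -0.26, SE 0.21, limma adjusted p = 0.643). CASP6, an executioner caspase, had a ratio of 0.932, and CASP5, the inflammatory caspase beside CASP4, had a ratio of 0.904. CASP1, CASP10 and CASP14 were at S/N 3 or under on all 4 arrays. Among 11 genes that form or regulate the apoptosome, all with a probe compared, the 16 probes had a median log2 change of -0.15, and APIP gave the 2 past 2-fold. HCCS, which attaches heme to cytochrome c, had a ratio of 1.31 without overlap (limma adjusted p = 0.347), and CSE1L, a nuclear export factor that promotes apoptosome assembly, was at 1.19 on probe 143238 and 1.02 on probe 233070. HTRA2 and AIFM1, other death factors of the mitochondrial intermembrane space, overlapped between the groups on all of their probes.

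Among the inhibitors that DIABLO counteracts, BIRC3 stood apart. Its signals were 0.0825 and 0.0901 in mock and 0.294 and 0.287 after knockdown, without overlap and 3.36-fold higher (log2 change 1.75, SE 0.13, limma adjusted p = 0.0645). XIAP, the direct inhibitor of CASP9, was at ratios of 0.937 and 0.954 on its 2 probes, and BIRC5, the inhibitor that also acts in mitosis, was at 1.31 and 1.21. The 9 probes of these 7 genes had a median log2 change of -0.07, with 3 higher and 3 lower without overlap, beside 21.2% and 25.8% of all probes.

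Around CASP8, the death receptor FAS was 1.63-fold higher without overlap (log2 change 0.70, SE 0.17, limma adjusted p = 0.174). PEA15, which binds FADD and CASP8, was at 1.34 on probe 220353 without overlap and at 0.934 with overlap on probe 187722. The 11 probes of the death receptor list had a median log2 change of 0.03, with 0 past 2-fold and 3 higher and 1 lower without overlap, against 21.2% and 25.8% of all probes. Around CASP4, CARD16, a CARD-only protein that inhibits CASP1 and appears on the array under its older name COP1, was lower on both probes. Probe 124411 gave 0.574 and 0.600 in mock and 0.362 and 0.339 after knockdown, a ratio of 0.597 (limma adjusted p = 0.120). Probe 161974 was at S/N 3 or under after knockdown, and its measured mean log2 signal was 2.48-fold lower. This fold is not a lower limit, and no difference was left against the signal needed for an S/N of 3 (1.01-fold). CARD16 is a near copy of part of CASP1, whose own probe was at S/N 3 or under, so the target of these probes is uncertain. Of the 9 caspase substrates measured, 6 were lower and none was higher without overlap, where 25.8% of all probes were lower, with a median log2 change of -0.18, and GSN, the actin-severing protein gelsolin, had the lowest ratio, 0.556 (limma adjusted p = 0.117).

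In methionine salvage, the other pathway of APIP, the enzyme before it and the one that opens the pathway were also lower, by less. MTAP, which cleaves methylthioadenosine, gave 4.01 and 4.18 in mock and 3.06 and 2.71 after knockdown, a ratio of 0.704 (limma adjusted p = 0.197). MRI1, the isomerase that makes the substrate of APIP, gave 0.163 and 0.208 in mock and 0.132 and 0.141 after knockdown, a ratio of 0.736 (limma adjusted p = 0.317). The groups of both did not overlap. The enzymes after APIP overlapped between the groups, at 1.05 for ENOPH1 and 0.948 and 0.984 for the 2 probes of ADI1. On the polyamine side, ODC1, the first enzyme of polyamine synthesis, gave 2.63 and 2.63 in mock and 4.50 and 4.54 after knockdown, 1.72-fold higher without overlap (limma adjusted p = 0.109). Of the 14 probes of this list, 6 were lower and 2 higher without overlap, the 3 of APIP included, and the median log2 change was -0.07. Without APIP, 3 of 11 were lower and 2 higher without overlap, near the 25.8% and 21.2% of all probes, and the median was -0.02.

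**Figure D5:**
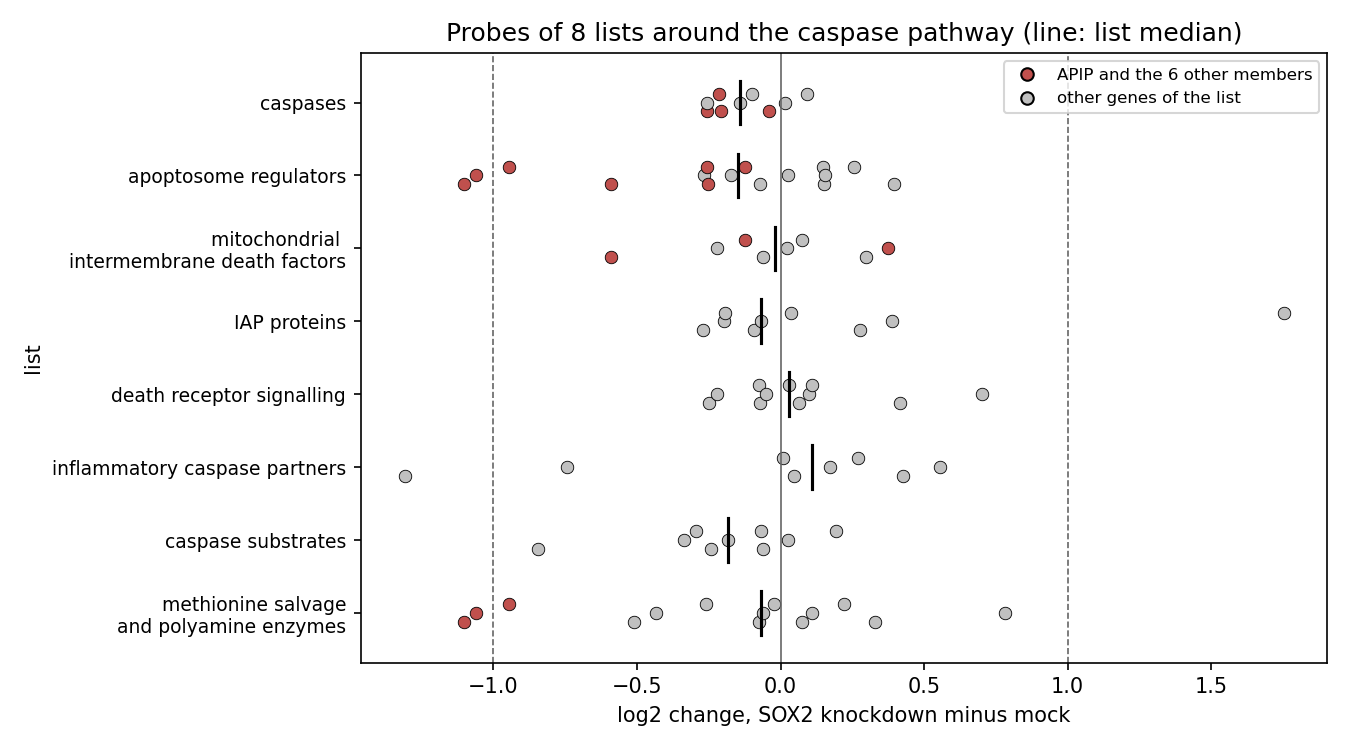
Log2 change (SOX2 knockdown minus mock) of every probe compared in 8 gene lists around the caspases, 1 point per probe, with APIP and the 6 other genes in red, black lines for list medians and dashed lines for 2-fold. Past 2-fold lie 2 APIP probes and 1 CARD16 probe on the lower side and BIRC3 on the higher side.

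Over the 78 probes of these 8 lists, each taken once, 3 were past 2-fold lower and 1 was past 2-fold higher. Without the 7 genes, 1 of 67 was past 2-fold in each direction and the median log2 change was 0.01. This was near the 1.04% lower and 1.57% higher past 2-fold among all probes compared. The pattern of APIP over the 4 arrays was most like that of TM4SF1, FKBP7, LIPA, NDRG2 and FXYD1, by the Euclidean distance of the centred log2 signals among 16463 probes. TM4SF1, a membrane protein of the tetraspanin-like family, had a ratio of 0.489, and LIPA, the lysosomal acid lipase, had a ratio of 0.485. The distances of the 5 were 0.0286 to 0.0517 over 4 arrays.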

How the data were processed

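Expression was measured on 4 Applied Biosystems Human Genome Survey arrays, 2 per group. The deposited signal intensity of each probe was background-subtracted and normalised within the array by the scanner software, and S/N was a deposited score. The series table of the authors held ratios, scaled per array by the 75th percentile and divided per probe by its median. Promoter windows came from RefSeq's tables for GRCh38.p14. From the scanner signal, 210 probes flagged at 5000 or above by any array were left out, signals were divided by the 75th percentile of the array, set to a floor of 0.01 and log2 transformed. Limma 3.58.1 in R 4.3.3 was fitted without a block, with Benjamini-Hochberg adjustment over all probes compared. The fit was tested on simulated data. The precision is limited by 2 arrays per group.

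The members and gene lists were chosen with earlier results of these data known. Named genes were the members, SOX2, up to 3 probes per direction and list with the largest change and separated groups, the nearest coding neighbours and the 5 probes most like APIP; other genes were named after their values were seen. Some genes of the lists are not reported here by name. Of 97 list and marker genes, 95 were found on the array, by symbol, synonym or RefSeq accession. Alternatives were other scalings, the raw signal with normexp, the series table, floors of 0.05 and 0.001, other S/N filters, averaging per gene identifier, a trended or robust variance, a replicate block, other fold limits and leaving out each array. A crossed pairing and the comparison of dim probes with the signal needed for an S/N of 3 were added after seeing the data.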

Additional observations from a re-analysis of the deposited data

How the results depend on the processing

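With 2 arrays per group, a difference has to be large against the spread of all probes to pass a threshold. The folds printed for dim probes are measured values and not lower limits. The mean log2 change of APIP was -1.09 to -0.99 when 1 array was left out, and -0.83 from the raw signal with normexp and quantile normalisation. The member probes past 2-fold, 2 as reported, were 0 with that correction, 4 at 1.5-fold and 0 at 3-fold, and were 2 without each array in turn. These were the 2 reported probes without mock 1 or SOX2 knockdown 1, shared 1 with them without SOX2 knockdown 2, and shared 0 without mock 2, where they were APIP probe 158402 and the dim CASP9 probe 189498. In the lists, 4 probes were past 2-fold as reported, 0 with normexp, 10 at 1.5-fold and 1 at 3-fold. Among all probes, 555 were past 2-fold as reported, 232 with normexp, 1678 without the S/N filter, 302 with S/N over 3 on all 4 arrays, 2235 at 1.5-fold and 125 at 3-fold. Without 1 array the count was 791 to 1214: 1214 without mock 1, 889 without mock 2, 1165 without SOX2 knockdown 1 and 791 without SOX2 knockdown 2. Of those past 2-fold, 60.2% were higher as reported, 77.2% with normexp, 49.3% without the S/N filter, 72.5% without SOX2 knockdown 1 and 81.6% at 3-fold. The probes with a limma adjusted p under 0.05, 0 as reported, where 1947 were lower and 1679 higher at an unadjusted p under 0.05, were 826 with median scaling, 776 without further scaling, 758 in the series table, 287 with a variance trend and 5 under the stricter S/N filter, and 0 without any 1 array. APAF1 turned from -0.25 to 0.0919 on the log2 scale with normexp. CASP4 turned from -0.04 to 0.0362 with normexp, and it was -0.117 to 0.0373 when 1 array was left out, above 0 without mock 2 alone. The cause of these shifts was not tested. Same-numbered arrays of the 2 groups deviated in opposite directions (r = -0.484 over 21256 probes), so the numbers were not taken as pairs. With the replicate number as a block, the limma adjusted p of the APIP probes was 0.337 to 0.398, 0 probes were under 0.05, and the counts of 2 member probes and 4 list probes past 2-fold stayed. The crossed pairing, added after seeing the data, also gave 0 probes under 0.05, but there the limma adjusted p of the APIP probes was 0.0677 to 0.0756. A count of 153 values of member probes left out the variance trend, the robust variance, the crossed pairing, other fold limits and averaging per gene identifier. Of these values, 141 kept their direction and their side of 0.05, and 3 are the reversals above. The other 9 are the APIP values that passed 0.05 with median scaling, without further scaling and in the series table.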
